A study of Mus musculus with 8 samples.

Results

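The question followed here was whether the loss of miR-223, a myeloid microRNA, changes messenger RNA to the same extent in neutrophil progenitors and in mature neutrophils. The quantity is the stage difference of a transcript: the null effect (miR-223 null minus wild type) at day 8 minus the null effect at day 4, on the log2 scale. It uses all 8 arrays of the series. Of the 45037 Affymetrix probe sets that are not controls, the 22519 in the brighter part, whose 8-array mean reached the median of such means, were the features tested (lowest mean inside 5.51, highest mean outside 5.51, log2). The 4 groups, of 2 arrays each, were wild-type day 4, miR-223 null day 4, wild-type day 8 and miR-223 null day 8. All began as mouse bone marrow progenitors in SILAC-IMDM, a medium for isotope labelling of proteins, with the granulocyte growth factor G-CSF and stem cell factor (SCF), which binds the receptor c-Kit. Day 4 cells had 4 days with both factors and were sorted for c-Kit on and against Gr-1 (c-Kit+ Gr-1-), hence as progenitors. Day 8 cells had 6 days with both factors, then 42 hours without SCF, and were sorted the opposite way (c-Kit- Gr-1+), hence as mature neutrophils. Time in culture, SCF withdrawal and the sort changed together between the days. Stage and maturation below stand for them jointly, since they cannot be told apart. The labels give no strain, age, number of animals or details of the null allele, and do not say whether replicates came from separate animals or cultures. All p-values therefore measure the spread between arrays, which may be technical. In sorted bulk samples such as these, fewer cells of a type and less RNA per cell cannot be told apart.

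A microRNA guides an Argonaute protein to messenger RNAs that pair with its seed, a short stretch near its 5′ end, and the bound messengers are translated less and decay faster. miR-223 is among the most abundant microRNAs of the neutrophil lineage, and it accumulates as granulocytes mature. The gene Mir223 lies on the X chromosome (GRCm38.p6, chrX:96242817-96242926, plus strand, from RefSeq), where its hairpin of 110 bases gives a mature strand from each arm. Both are shown because they are what the null cells lack, with bases 2 to 8, the seed, in capitals:
mmu-miR-223-3p: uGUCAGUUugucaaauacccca
mmu-miR-223-5p: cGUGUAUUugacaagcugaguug
Among the mature mouse microRNAs of the RefSeq table each seed was held by 1 name only. The probe set identifiers could not be matched to genes (0 of 45101 were found in the gene table used here), so the absence of miR-223, the sorting markers and gene lists such as earlier named targets and granule genes were not analysed here. Probe sets are described as groups, and 4 of them array by array.

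The null effect differed between the stages in 373 of the 22519 probe sets (1.66%), at an adjusted p below 0.05 by limma with Benjamini-Hochberg adjustment. The difference was positive, a higher null effect in mature neutrophils than in progenitors, in 348 (1.55%) and negative in 25 (0.111%). Over all tested probe sets it was centred near 0, with a median of 0.04 on the log2 scale, and 56.2% were positive. The central 50% lay between -0.12 and 0.20. The median of the 348 was 0.75, or 1.69-fold, with quartiles of 0.59 and 0.94, and that of the 25 was -0.71, or 1.63-fold, with quartiles of -0.97 and -0.55. A 2-fold difference or more was found in 67 of the 348 and 4 of the 25, against 100 of all probe sets tested. The median standard error (SE) of a stage difference was 0.163. The smallest difference called was 0.35 in size. At an unadjusted p below 0.05 there were 2807 positive and 913 negative differences. The share of positive calls was 88.2% after quantile normalization, 85.4% after cyclic loess and 93.3% with arrays at the same median, and 93.3% as deposited, but it was lower under another scale. The 18 hybridization control probe sets report material added for the hybridization step, not RNA of the cells. Their mean itself had a stage difference of 0.18. With arrays scaled to these controls the overall median became -0.15, and 61 positive and 63 negative differences were called. Scaling to these controls is no measure of the RNA content of the cells, and which scale is nearer to that content was not tested.

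**Figure D1:**
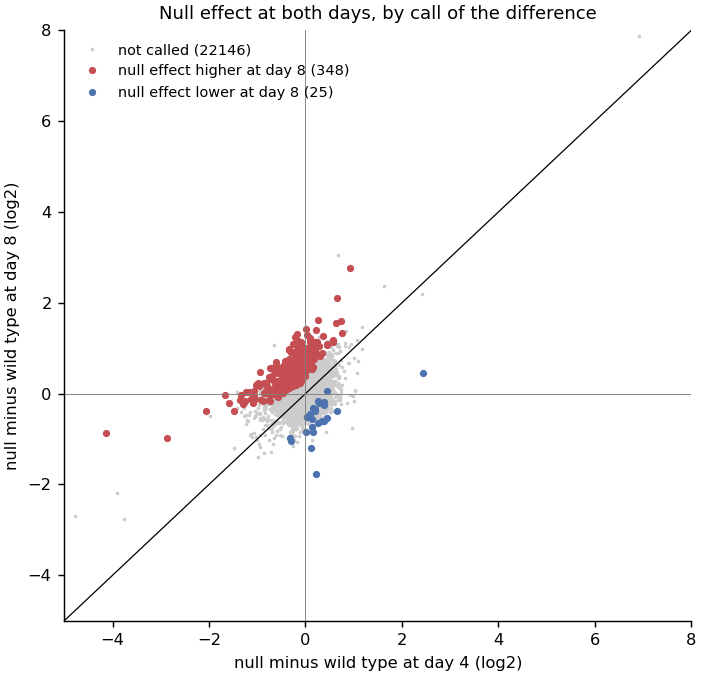
Null minus wild type at day 4 (horizontal axis, log2) against the same at day 8 (vertical axis, log2), for 22519 probe sets, each point a probe set; on the diagonal the null effect is equal at both stages. The 348 probe sets with a higher null effect at day 8 (red) spread above the diagonal from the upper part of the plot, raised at day 8, to the left, lowered at day 4, and the 25 with a lower effect (blue) lie below it.

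The 348 positive differences arose in several ways, seen when each was sorted by the stage or stages at which its null effect was itself called. These counts use the same arrays as the stage difference, so they describe it and do not add to it. One class, of 182 probe sets, was higher in null neutrophils and not called in progenitors. Over all tested probe sets 4.09% were called higher in null cells at day 8. The median levels of the 182 were 8.69 in wild-type and 8.61 in null progenitors, and 8.54 in wild-type and 9.10 in null neutrophils. The median null effect was 0.63 at day 8 and -0.13 at day 4. The similar medians of the other 3 groups describe the class and not its single members. With maturation in wild type, a rise was called for 75 members and a fall for 92, and such opposite changes can offset each other in a median. Another class, of 112 probe sets, was lower in null progenitors and not called in neutrophils. Over all tested probe sets 2.14% were called lower in null cells at day 4. Median levels of the 112 were 8.97 in wild-type and 8.38 in null progenitors, and 10.42 and 10.55 in neutrophils. Here null progenitors stood below wild-type ones, while the neutrophils of both genotypes were close, with a median null effect of -0.60 at day 4 and 0.13 at day 8. Neither class size was stable. With an array left out, the class raised in null neutrophils held 15 to 253 probe sets and the class lowered in null progenitors 19 to 351. The class lowered in progenitors was the larger one without wild-type day 4 replicate 2 (351 against 253) and without null day 8 replicate 2 (19 against 15). It held 59 without wild-type day 4 replicate 1. Scaled to the hybridization controls the classes held 27 and 21.

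The other 54 positive differences formed smaller classes. In 11 probe sets the null effect was called in opposite directions, with medians of -0.46 at day 4 and 0.40 at day 8. In 10 probe sets null cells were higher at both stages and more so in neutrophils, with medians of 0.60 and 1.26, against 0.582% of all tested probe sets called higher at day 4. In 1 probe set null cells were lower at both stages and less so at day 8. The remaining 32 were called at neither stage alone (medians -0.37 at day 4 and 0.31 at day 8), so only the difference between the stages passed the threshold. Of the 25 negative differences, 17 were lower in null neutrophils and not called in progenitors, with medians of -0.60 at day 8 and 0.15 at day 4, where 1.22% of all tested probe sets were called lower at day 8. Another 5 were higher in null progenitors and not called in neutrophils, 1 was lower at both stages and 2 were called at neither.

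The stage difference can be read along the other axis of the design as well, since it equals the maturation change (day 8 minus day 4) of null cells minus that of wild-type cells. Both maturation changes share arrays with the stage difference, so their values are set side by side only. The 348 probe sets had a median maturation change of 0.34 in wild type and of 1.08 in null cells. Of them, 186 were called higher at day 8 in wild type and 129 lower, where 35.5% of all tested probe sets were called higher and 41.7% lower. In null cells 239 were called higher and 85 lower, where 36.0% of all tested were called higher and 39.9% lower. A rise in both genotypes was called in 186 of the 348 (53.4%, against 31.3% of all tested). A fall in both was called in 85 (24.4%, against 37.8% of all tested). The 348 were chosen for a higher change in null than in wild-type cells, so fewer falls in null cells follow in part from that choice. In 20 of the 348 (5.75%) the transcript fell with maturation in wild type and rose in null cells, a shape that the same choice favours. Over all tested probe sets, these 20 included, it was found in 34 (0.151%). Of the 25, 10 fell in both genotypes (40.0%) and 8 rose in both (32.0%), shares near those of all tested.

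The signal of both classes in mature cells was then described. Signals of different probe sets depend on their probes and are not amounts of RNA, so the ranks below are of signal only. Of the 112 probe sets lower in null progenitors, 49 (43.8%) were among the brightest 10% of tested probe sets at day 8 in both genotypes, and 15 (13.4%) among the brightest 1%. For all tested probe sets these shares were 9.52% and 0.950%. Of the 182 raised in null neutrophils, 19 (10.4%) and 1 (0.549%) were that bright. A high share in the brightest 10% was not particular to the 112. It was 4 of the 11 called in opposite directions (36.4%) and 9 of the 32 called at neither stage (28.1%), but 0 of the 10 higher at both stages. In wild type 59 of the 112 (52.7%) rose by 2-fold or more with maturation and 17 (15.2%) by 8-fold or more, against 12.5% and 1.28% of all tested. Of the 182, 32 (17.6%) rose by 2-fold or more in wild type and 7 (3.85%) by 8-fold or more. A high share of 2-fold rises was not particular to the 112 either. It was 6 of the 11 called in opposite directions (54.5%) and 9 of the 32 called at neither stage (28.1%). It was 9 of the 25 negative differences (36.0%), but 1 of the 10 higher at both stages. A rise of 8-fold or more was found in 1 of the 11 and 2 of the 25, but in 0 of the 32 and 0 of the 10. A fall of 2-fold or more was found in 63 of the 182 (34.6%) and 8 of the 25 (32.0%), against 20.7% of all tested. Whether the classes differ in these shares was not tested, and the near-top signals of the 15 may be compressed. The wild-type day 4 arrays enter both the choice of the 112 and their maturation change. These shares were looked at after the classes had been seen.

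Calls were more frequent among bright probe sets, where the arrays measured with less error. When the tested probe sets were divided into 4 equal parts by mean level, positive calls made up 0.497%, 1.28%, 1.72% and 2.68% from the dimmest to the brightest part. Negative calls made up 0.071%, 0.071%, 0.107% and 0.195%. The median SE fell from 0.208 to 0.108 over the same parts. In 312 of the 348 and 20 of the 25, all 4 group means were at or above the filter value of 5.51, against 88.4% of all tested probe sets. The suffix of an identifier tells how specific its probes are: _S_AT sets match several genes and _X_AT sets can cross-hybridize. Of the 348, 23 were _S_AT and 25 _X_AT sets (6.61% and 7.18%), close to the 6.56% and 6.55% of all tested. Of the 25, 2 and 3 were.

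1438239_AT had the largest positive difference as fitted. Wild-type progenitors read 7.89 and 8.95 on their 2 arrays and null progenitors 4.29 on both, while wild-type neutrophils read 5.54 and 5.54 and null neutrophils 4.78 and 4.55. Only the wild-type progenitors were clearly above the filter value, and through them alone the probe set passed the filter. Both null progenitor arrays carried the same value, the lowest of the 8 arrays. The mean of wild-type neutrophils (5.54) was just above the filter value and that of null neutrophils (4.67) below it. Whether the transcript was detected outside wild-type progenitors was not tested. The null effect was -4.12 (SE 0.27, adjusted p = 9.3e-05 by limma) at day 4 and -0.88 (SE 0.27, adjusted p = 0.090) at day 8, which gave a stage difference of 3.25 (SE 0.38, adjusted p = 0.0059). These sizes, their SEs and the rank are set against values below or near 5.51. They depend on how the authors corrected for background. With all values below 5.51 set to 5.51, it was 2.88 (adjusted p = 0.010; 17 alternatives spanned 1.7e-05 to 0.039).

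1419691_AT had the largest positive difference among probe sets measured above the filter value in all 4 groups. Wild-type progenitors read 9.96 and 9.48, and null progenitors 7.77 and 7.57. Wild-type neutrophils read 14.01 and 13.96, and null neutrophils 13.56 and 13.66, near the top of the scale. Null arrays were below wild-type arrays at both stages, by much more in progenitors. The null effect was -2.05 at day 4, a 4.15-fold lower level (SE 0.13, adjusted p = 9.3e-05 by limma), and -0.38 at day 8 (SE 0.13, adjusted p = 0.13). The fitted rise with maturation was 19.2-fold in wild type and 61.4-fold in null cells. Signals this near the top of the scale may be compressed, a limit that these folds, the null effect at day 8 and the stage difference share. The stage difference was 1.68, or 3.20-fold (SE 0.18, adjusted p = 0.0055), and it was called in 18 of 18 alternatives. This probe set is 1 of the 15 in the class lowered in null progenitors that were among the brightest 1% at day 8.

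The largest negative difference, that of 1419681_A_AT, had the reverse shape. Wild-type progenitors read 5.30 and 5.04 and null progenitors 5.42 and 5.37, all 4 below the filter value. Wild-type neutrophils read 8.11 and 7.93, and null neutrophils 6.03 and 6.48. With maturation the fitted rise was 7.20-fold in wild type but 1.82-fold in null cells. The filter value is a median of means and no measure of background. The null effect was 0.22 at day 4 (SE 0.16, adjusted p = 0.53 by limma) and -1.76 at day 8, a 3.40-fold lower level (SE 0.16, adjusted p = 0.00028). The stage difference was -1.99 (SE 0.23, adjusted p = 0.0059), and -1.76 (adjusted p = 0.0076; 17 alternatives spanned 5.0e-05 to 0.038) with values below 5.51 set to 5.51. Since both progenitor means were low, the folds over maturation depend on the background correction.

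1440402_AT had the largest negative difference among probe sets above the filter value in all 4 groups. Wild-type progenitors read 6.76 and 6.83, and null progenitors 7.36 and 7.53. Wild-type neutrophils read 6.78 and 6.54, and null neutrophils 6.34 and 6.24. Null arrays stood above wild-type arrays in progenitors, by 0.65 (SE 0.13, adjusted p = 0.024 by limma). In neutrophils the null effect was -0.37 (SE 0.13, adjusted p = 0.13) and not called, so a crossing of the genotypes was not shown. In wild type the level hardly moved with maturation (log2 change -0.13, SE 0.13, adjusted p = 0.35 by limma), while in null cells it fell 2.23-fold (log2 change -1.15, SE 0.13, adjusted p = 6.4e-06). The stage difference was -1.02 (SE 0.18, adjusted p = 0.021). Its call rested on most of the arrays: it was lost without wild-type day 4 replicate 1 (-0.99), null day 4 replicate 1 (-1.11) or 2 (-0.94), wild-type day 8 replicate 1 (-0.91), and null day 8 replicate 1 (-1.07) or 2 (-0.97), with adjusted p-values from 0.015 to 0.11 over 17 alternatives.

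**Figure D2:**
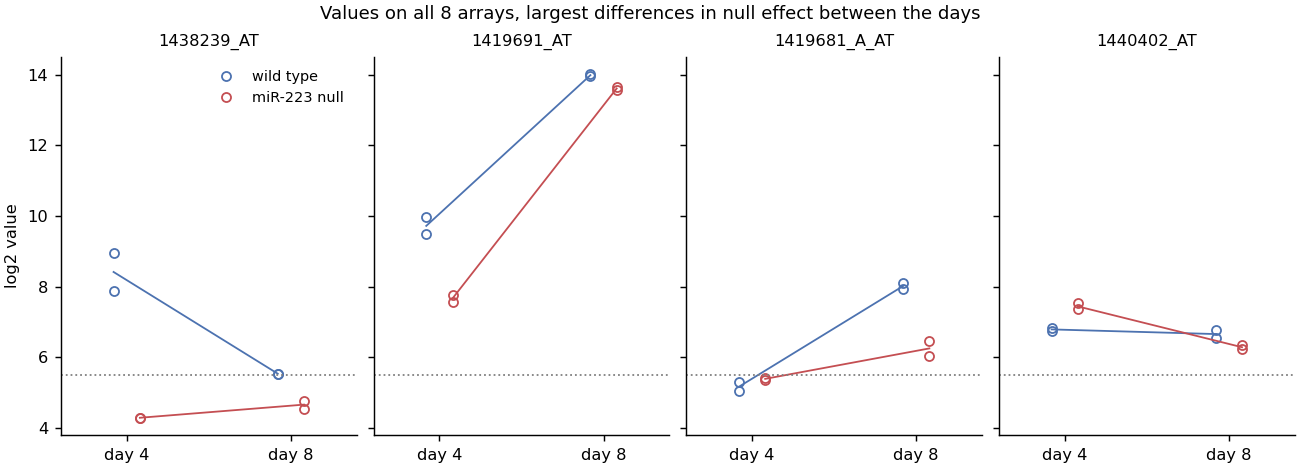
Log2 value (vertical axis) at day 4 and day 8 of the 4 probe sets described array by array; open circles are single arrays of wild type (blue) and miR-223 null (red), lines join the group means of 2 arrays, and the dotted line is the filter value of 5.51. For 1438239_AT and 1419691_AT the genotypes are farthest apart at day 4, for 1419681_A_AT at day 8, and for 1440402_AT the lines cross, but its null effect at day 8 was not called.

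The arrays were also described by principal components. In a principal component analysis of the 22519 probe sets, the third component held 1.10% of the variance, after the day (94.8%) and the genotype (1.95%). Its scores were 13.3 and 10.1 for the wild-type progenitor arrays and -10.6 and -11.8 for the null progenitor arrays. They were -7.05 and -10.5 for the wild-type neutrophil arrays and 7.73 and 8.84 for the null neutrophil arrays. Wild-type progenitors and null neutrophils lay on one side and the other 2 groups on the opposite side. With day and genotype on the first components, this arrangement of signs is nearly the only one left for a further axis between 4 groups, so it is no support for the stage difference. What it gives is the size: 1.10% of the variance, against 0.764% for the fourth component, which parted replicates. Replicates of a group were between 1.12 and 3.47 apart on this component, less than the distance between any arrays of opposite sign. This is a description of 8 arrays, made after the comparison had been seen.

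**Figure D3:**
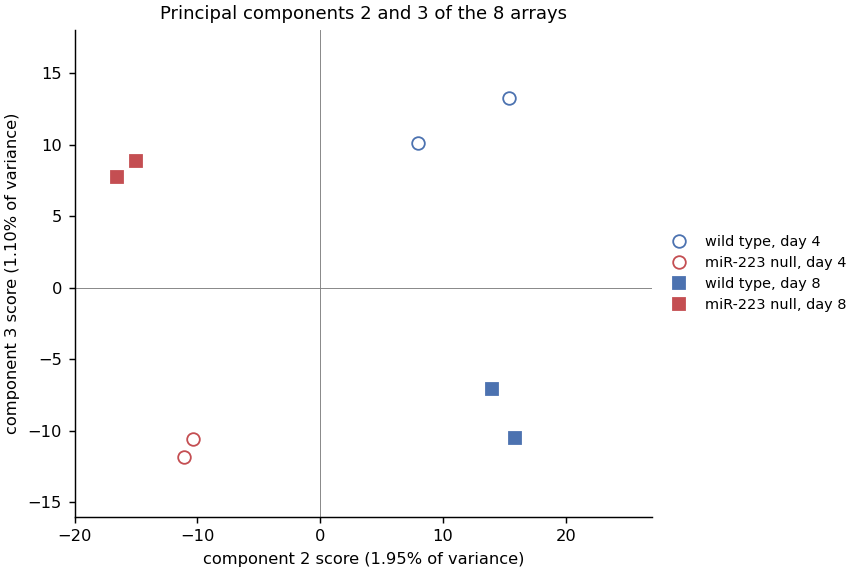
Scores of the 8 arrays on the second component (horizontal axis, 1.95% of variance) and the third (vertical axis, 1.10%), in arbitrary units; colour gives the genotype and shape the day. The second component parts the genotypes, and the third puts wild-type day 4 with null day 8 above 0 and the other 2 groups below 0.

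The arrays numbered replicate 1 and those numbered replicate 2 give estimates of the stage difference that share no array. Across the 22519 probe sets these estimates correlated at r = 0.345 (Spearman's rho = 0.309), and they had the same sign in 59.6%. The points share the probes and the authors' common normalization, and genes are not independent replicates. Over all probe sets a stage difference from 1 array per group was thus weakly repeatable. The estimates had the same sign in each of the 348 and 25 called probe sets, but a call needs replicates that are close, so this adds no support. Their medians were 0.77 and 0.71 for the 348 and -0.76 and -0.65 for the 25.

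**Figure D4:**
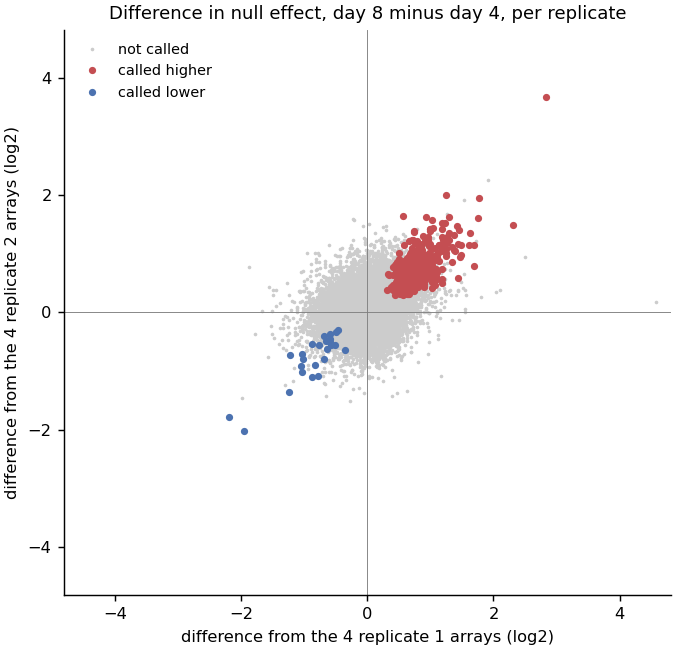
Stage difference computed from the 4 replicate 1 arrays (horizontal axis, log2) and from the 4 replicate 2 arrays (vertical axis, log2), each point a probe set. Grey probe sets form a broad cloud (r = 0.345 over all 22519), with the 348 positive calls (red) in the upper right and the 25 negative calls (blue) in the lower left.

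By the first component and the median replicate SD, replicates were less even in wild type than in null cells. On the first component the arrays of a group lay 10.9 apart for wild-type progenitors, with replicate 1 nearer to the neutrophils, 9.64 apart for wild-type neutrophils, 1.94 for null progenitors and 0.287 for null neutrophils. The median replicate SD was 0.097 and 0.076 in wild-type progenitors and neutrophils, and 0.058 and 0.069 in null ones. On the fourth component this order was reversed in neutrophils, with scores of 3.78 and -4.82 in wild type and 6.85 and -6.30 in null. In the 112 probe sets lowered in null progenitors, wild-type day 4 replicate 1 read higher than replicate 2 by a median of 0.13. Over all tested probe sets that median was -0.04. In the 182 raised in null neutrophils that median was 0.03. Without wild-type day 4 replicate 1 the median stage difference of the 112 was 0.66. Without replicate 2 of that group it was 0.81, against 0.76 with both. For the 182 it was 0.75 and 0.77, against 0.77. Without wild-type day 4 replicate 1, 205 of the 373 probe sets were still called.

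The named control transcripts give a view of genes whose identity is known. None of the 19 mouse control probe sets had a stage difference that was called by limma, and 0 had an unadjusted p below 0.05. The lowest adjusted p was 0.35. The differences ran from -0.37 to 0.40, 5 positive and 14 negative. Transferrin receptor, the cell's main route of iron uptake, had the lowest. Its 3′ probe set read 8.56 and 8.85 in wild-type progenitors and 9.17 and 8.91 in null progenitors, then 6.49 and 6.13 in wild-type neutrophils and 6.12 and 6.44 in null neutrophils. The genotypes overlapped in neutrophils and did not in progenitors, and the stage difference was -0.37 (SE 0.23, adjusted p = 0.47). The values were -0.14 at the middle and -0.17 at the 5′ probe set. The highest value was that of the middle probe set of 18S ribosomal RNA, 0.40 (SE 0.23, adjusted p = 0.43).

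Beta-actin, the main actin of the cytoskeleton, had stage differences of -0.08 (3′ probe set), -0.07 (middle) and -0.09 (5′), and Gapdh, a glycolytic enzyme, of -0.06, -0.03 and -0.06 at the same positions. The 3′ minus 5′ log2 value, which grows when RNA is degraded, had a stage difference of 0.0056 for beta-actin and -0.0065 for Gapdh. These control signals, between 13.9 and 14.7, are near the top of the scale, where a change may be compressed, and the part of RNA integrity in the result was not tested. The B1 repeat, carried by many mouse RNAs, had a value of -0.18 (SE 0.09, adjusted p = 0.35 by limma). Pyruvate carboxylase, a mitochondrial enzyme, ranged from -0.27 to 0.09 over its 4 probe sets. These values are as deposited. Scaled to the hybridization controls all shift by the same amount, only 3 of the 19 stay positive, and 0 were called.

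The number of calls depended on single arrays. Leaving an array out leaves its group with 1, which is then assumed to vary like the other groups. Leaving out wild-type day 4 replicate 2 gave 893 calls, and leaving out replicate 1 of that group gave 250. Leaving out null day 4 replicate 1 gave 74 calls and replicate 2 gave 57. Of the neutrophil arrays, wild-type replicate 1 left out gave 75 and replicate 2 gave 94, and for null the counts were 67 and 48. Positive calls outnumbered negative ones in each of these. Of the 373 probe sets, 36 were called without any one of the 8 arrays, 32 of them positive, and 13 kept their call in none of the 8. A core of 32, with 28 positive and 4 negative differences, was called in every alternative in which it was tested, scaling to the hybridization controls included. The 28 comprised 12 of the class raised in null neutrophils, 11 of the class lowered in null progenitors, 4 raised at both stages and 1 of opposite directions. The 4 comprised 3 lower in null neutrophils and 1 higher in null progenitors. The median stage difference of the 32, signs kept, was 1.12. 1438239_AT, 1419691_AT and 1419681_A_AT belonged to this core. In 6 of the 32 the lowest group mean was below the filter value, 1438239_AT (4.29) and 1419681_A_AT (5.17) among them. 1438239_AT passed the filter through wild-type progenitors alone, and its null progenitor arrays carried the same value. For both, the size of the difference depends on the background correction, whatever the number of alternatives in which they were called.

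**Figure D5:**
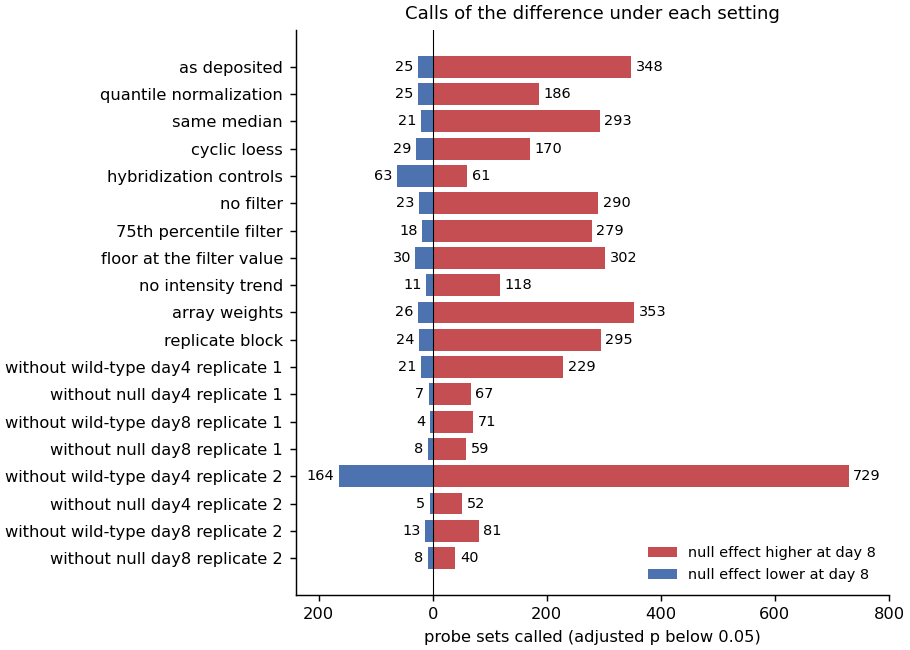
Number of probe sets with a called stage difference (horizontal axis) under each setting, positive to the right (red) and negative to the left (blue). Bars run from 40 to 729 positive calls when an array is left out, and positive and negative calls are nearly equal (61 and 63) when scaled to the hybridization controls.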

How the data were processed

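Biotin-labelled material from total RNA of 8 samples was measured on Affymetrix arrays. The authors deposited log2 values (base read from their range); GCOS is named, without a version, in the submitters' processing notes. How probes were summarized, background-corrected and normalized is not given in the sources used here. Array medians lay between 5.44 and 5.49, so values were analysed as deposited. For arrays, their number limits the precision.

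One limma 3.58.1 model (R 4.3.3; 4 group means, eBayes with an intensity trend, 4 residual degrees of freedom) gave the stage difference and the 4 pairwise changes. Tests were two-sided, adjusted over 22519 probe sets, and called below 0.05. Mouse controls were fitted together with these. An exact permutation of 2 against 2 arrays cannot go below 0.333. The steps were tested on simulated data.

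The members and lists were chosen with earlier results of these data known. The rule for named genes took the largest called differences per direction, overall and among probe sets with all 4 group means at or above the filter value. Lacking gene names, only the first of each is given, a limit set after the data were seen. Gene lists, promoter motifs and neighbours of Mir223 were not analysed here.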

Additional observations from a re-analysis of the deposited data

Results flagged for a closer look

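The null effect differed between the stages, by the interaction term itself, in 373 probe sets. The 4 described array by array are among them, with stage differences of 3.25 (1438239_AT), 1.68 (1419691_AT), -1.99 (1419681_A_AT) and -1.02 (1440402_AT). Groups of 2 arrays are too small for a search for single outlying arrays.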

How the results depend on the processing

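The number of calls moved with the setting. It was 211 (186 positive) after quantile normalization, 199 (170 positive) after cyclic loess, 124 (61 positive, 63 negative) scaled to the hybridization controls, and 129 (118 positive, 11 negative) without the intensity trend. Leaving out each array gave 48 to 893 calls, 40 to 729 positive and 4 to 164 negative, with the spread of the group left with 1 array taken from the other groups. Scaling to the same median, no filter, a filter at the 75th percentile, the floor at 5.51 and array weights gave 297 to 379. The labels do not say whether equal replicate numbers mark a shared batch. Deviations of same-numbered arrays correlated at -0.05 to 0.22, but the fourth principal component parted all arrays by replicate number. Whether this is a batch was not tested. With a replicate block 319 were called. Of the 4 probe sets described, only 1440402_AT lost its call in any alternative, in 6 that each leave out 1 array. List counts with any probe set of a gene were not run, since no gene names were at hand. Signal over background limits the sizes where a group mean is below 5.51, as in 36 of the 348 and 5 of the 25.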
